A study of Homo sapiens with 6 samples.

Results

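The respiratory chain genes measured here encode the subunits of complexes I to V, which sit in the inner mitochondrial membrane, pass electrons from NADH and succinate to oxygen and make ATP from the proton gradient that this builds. They were taken from a gene-level RNA-seq count table by symbol. The rows kept were MT-ND, MT-CO, MT-ATP and MT-CYB genes, and nuclear genes of the NDUF, COX4 to COX8, UQCR, SDH and ATP5 families, with 27 pseudogenes removed from 122 matching rows. This left 95 genes of 36887 in the table, of which 13 were encoded by the mitochondrial genome and 82 by the nucleus. By complex, the nuclear genes numbered 37 for complex I (NADH dehydrogenase), 4 for complex II (succinate dehydrogenase), 9 for complex III (cytochrome bc1), 13 for complex IV (cytochrome c oxidase) and 19 for complex V (ATP synthase). The mitochondrial genes numbered 7 for complex I, 1 for complex III, 3 for complex IV and 2 for complex V, and complex II has none. Because the rule reads symbols, it also took in ATP5S and ATP5SL, which are not ATP synthase subunits, the gene copies UQCRHL, ATP5L2 and ATP5J2LP, and NDUFA4, counted under complex I by name although later work places its protein in complex IV.

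The samples were 5637 cells, an established human bladder cancer line labelled wild type, transfected for 48 h with a negative control siRNA (siNC, 3 samples) or an siRNA against YKT6 (siYKT6, 3 samples). YKT6 is a SNARE protein of vesicle fusion, and the series asked how its loss changes the transcriptome of these cells. All 6 samples carry the same batch label, and whether they were grown and transfected separately is not stated, so p-values here reflect only the spread among these samples, which may be technical. The libraries held 45205238 to 64982015 counts each. YKT6 itself was 64.5, 65.3 and 68.2 CPM (read counts scaled to the library total) in siNC-1 to siNC-3 and 17.7, 19.4 and 17.3 CPM in siYKT6-1 to siYKT6-3, or 27.5% of the siNC mean. All 9 epithelial markers examined were above 1 CPM, and their sum was 4439 to 4568 CPM in siNC and 3397 to 3566 CPM in siYKT6. None of 5 leukocyte or 4 endothelial markers reached 1 CPM, while 3 of 5 fibroblast markers did, with sums of 29.6 to 30.9 CPM in siNC and 34.1 to 36.1 CPM in siYKT6, and the part of either shift in the results below was not tested.

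The subunits come from 2 genomes. Mitochondrial DNA is transcribed inside the organelle as long polycistronic RNAs that are cut at the tRNAs between genes, so its mRNAs share promoters and differ in level mainly through processing and decay. The nuclear subunits have a promoter each, are translated in the cytosol and are imported, and assembly factors join the products of both genomes into complexes. Complex II alone is wholly nuclear, and it also serves the tricarboxylic acid cycle by oxidising succinate. In bulk RNA, fewer cells of a kind and less RNA per cell cannot be told apart.

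In siYKT6 cells, the mitochondrially encoded subunits moved little. The 4 called were 3 complex I genes and MT-CO1, in a list where 7 of the 13 genes belong to complex I. Nuclear encoded subunits were more often called lower than all genes with every sample in, but not without siYKT6 replicate 2. With every sample in, complexes II, III and V held the larger shares. Without siYKT6 replicate 2, the genes of these complexes still called lower were SDHB, SDHD, UQCRH, UQCRQ, ATP5A1, ATP5B and ATP5E. Genes were called at an adjusted p under 0.05 in the quasi-likelihood test of edgeR, with the Benjamini-Hochberg method applied to all 21036 genes tested. Over all genes tested, 14.6% were called higher and 16.3% lower in siYKT6, 30.8% in all, and the median log2 fold change was 0.00. Of the 13 mitochondrial genes, 3 were called higher and 1 lower, together about the share called over all genes. The median log2 fold change of the 13 was 0.03. Without siNC replicate 2 there were 5 higher, and without siYKT6 replicate 3 the median was -0.0015. Of the 78 nuclear members tested, 2 were called higher and 21 lower (26.9%), and their median was -0.05. Relative to the siNC mean, the median over the nuclear members was -0.08 and -0.07 on the log2 scale in siYKT6-1 and siYKT6-2 but 0.0059 in siYKT6-3, within the siNC range of -0.01 to 0.0063. Without siYKT6 replicate 3 the median fold change was -0.08 on that scale. Without siYKT6 replicate 2, 10 of the 78 were called lower, against 2946 of the 21440 genes tested in that setting. The nuclear share was then no larger than that of all genes. Every siYKT6 sample lay below every siNC sample in 20 of these 78 genes and in 1 of the 13, against 21.5% of all genes tested, and above it in 4 and 4, against 20.3%. The difference between both sets of genes was not tested.

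**Figure D1:**
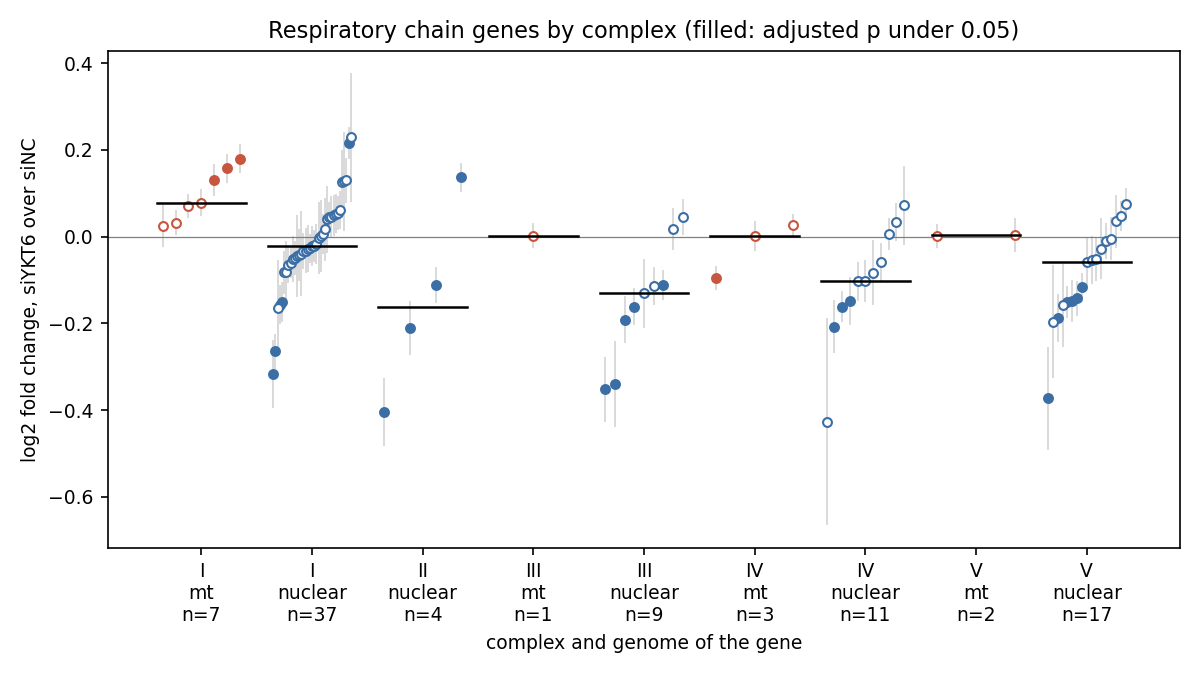
Log2 fold change of siYKT6 over siNC (y axis) for the 91 respiratory chain genes tested, grouped by complex and by genome (x axis, red mitochondrial, blue nuclear). Points are genes, grey lines are 1 standard error on each side, black bars are group medians and filled points have an adjusted p under 0.05. The 7 mitochondrial genes of complex I all sit above 0, while the medians of the nuclear groups lie between -0.16 and -0.02.

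The mitochondrial genes were by far the most abundant members. On the scale of CPM per kilobase of exon, their siNC levels ran from 1456 for MT-ND6 to 18208 for MT-CO3, with MT-ATP6 next at 17622. The nuclear members ran from 0.295 CPM per kilobase for COX6B2 to 537 for NDUFS5, with COX6C next at 264. Together the 13 mitochondrial genes took 6.69% to 7.04% of all counts in siNC and 7.04% to 7.32% in siYKT6, ranges that overlap, and the nuclear members took 0.502% to 0.512% and 0.468% to 0.509%.

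MT-ND1, a membrane-arm core subunit of complex I at the quinone site (mitochondrial genome, 3307 to 4262, plus strand), was 6141, 5487 and 5760 CPM in the siNC samples and 6520, 6463 and 6712 CPM in the siYKT6 samples. All 3 siYKT6 samples were above all 3 siNC samples. The mean rose from 5796 ± 329 to 6565 ± 130 CPM (SD, n = 3 each), a log2 fold change of 0.18 with a standard error of 0.033 (edgeR adjusted p = 2.2e-04). MT-ND2, a proton-pumping subunit of the same arm (4470 to 5511, plus strand), was 3445, 3615 and 3278 CPM in siNC and 3821, 3736 and 3977 CPM in siYKT6, again without overlap, and rose by 0.16 on the log2 scale (standard error 0.033, edgeR adjusted p = 8.8e-04). MT-ND3, a small core subunit near the junction of the arms (10059 to 10404, plus strand), was 877, 866 and 787 CPM in siNC and 906, 907 and 956 CPM in siYKT6. Its log2 fold change was 0.13 (standard error 0.037, edgeR adjusted p = 0.0100), but without siNC replicate 3, the lowest of its group, it was 0.08 and no longer called (edgeR adjusted p = 0.091).

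The other 4 mitochondrial complex I genes did not pass the test. MT-ND4L, another membrane-arm core subunit, was 3827 to 3973 CPM in siNC and 4038 to 4211 CPM in siYKT6, without overlap (log2 fold change 0.07, edgeR adjusted p = 0.057). MT-ND5, the subunit at the far end of the arm, was 4617 to 5018 CPM in siNC and 4988 to 5236 CPM in siYKT6 (log2 fold change 0.08, edgeR adjusted p = 0.065). Both were called with limma-voom (adjusted p = 0.018 and 0.033). MT-ND4, a further proton-pumping subunit, had a log2 fold change of 0.03, and so did MT-ND6, the only subunit read from the other strand, with overlapping groups in both.

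MT-CO1, the catalytic subunit of complex IV that holds the site of oxygen reduction (5904 to 7445, plus strand), went the other way. It was 8770, 8691 and 8239 CPM in siNC and 8061, 7885 and 8120 CPM in siYKT6, all below siNC, with the gap between the groups small beside the spread within siNC. It fell by 0.09 on the log2 scale (standard error 0.028, edgeR adjusted p = 0.012). The call was lost without siNC replicate 1 (log2 fold change -0.08, edgeR adjusted p = 0.071) and without siYKT6 replicate 2 (-0.08, edgeR adjusted p = 0.083). The other 2 core subunits of complex IV had overlapping groups, MT-CO2 at 2580 ± 110 and 2583 ± 128 CPM and MT-CO3 at 14275 ± 315 and 14533 ± 472 CPM (SD, n = 3 each). So did MT-CYB, the cytochrome b of complex III, at 2658 ± 63.6 and 2662 ± 67.2 CPM, and the membrane subunits of ATP synthase, MT-ATP6 at 12001 ± 324 and 12023 ± 348 CPM and MT-ATP8 at 1221 ± 84.5 and 1225 ± 48.5 CPM (SD, n = 3 each). The log2 fold changes of these 5 genes lay between 0.00 and 0.03.

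**Figure D2:**
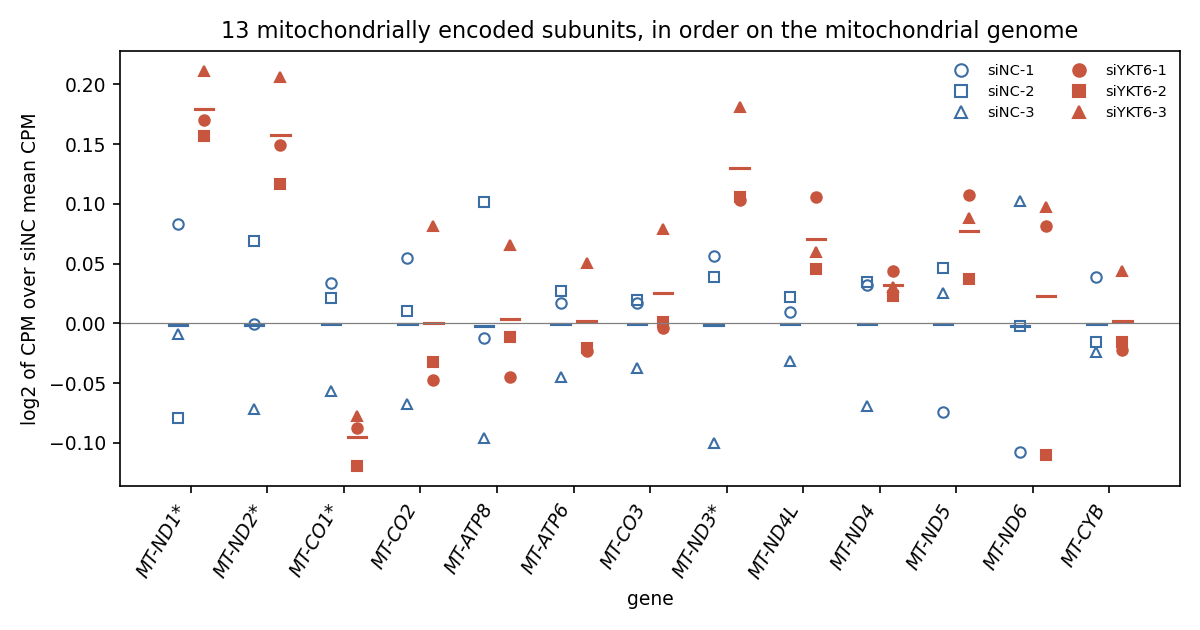
Log2 of each sample's CPM over the siNC mean CPM (y axis) for the 13 mitochondrial genes in genome order (x axis). Open blue symbols are siNC, filled red symbols siYKT6, the symbol shape gives the replicate, short bars are means of the log2 values and an asterisk marks an edgeR adjusted p under 0.05. The siYKT6 samples lie above siNC for MT-ND1, MT-ND2, MT-ND3 and MT-ND4L and below it for MT-CO1.

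Some of these reads cannot be placed with certainty, because the nuclear genome holds a recent insertion of mitochondrial DNA on chromosome 1 with near copies of 7 of the genes. The copy of MT-ND2, MTND2P28, held 22.4% of the counts of both genes in siNC, and that of MT-ATP6, MTATP6P1, held 20.05%. The shares of the other 5 copies were 1.72% or less. Over their whole length MTND2P28 and MT-ND2 were identical at 98.4% of bases in GRCh38, with 17 mismatches, and MTATP6P1 and MT-ATP6 at 98.5%, with 10. The stretches below show how little separates gene and copy, with the bases that differ in capitals:
MT-ND2 (chrM:4899-4958, plus strand): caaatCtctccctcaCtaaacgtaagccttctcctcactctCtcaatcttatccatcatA
MTND2P28 (chr1:630069-630128, plus strand): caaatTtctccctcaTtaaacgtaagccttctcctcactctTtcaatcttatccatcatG
MT-ATP6 (chrM:8642-8701, plus strand): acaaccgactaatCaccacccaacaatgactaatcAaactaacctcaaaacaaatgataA
MTATP6P1 (chr1:633811-633870, plus strand): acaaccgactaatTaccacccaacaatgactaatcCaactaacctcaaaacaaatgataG
The longest run without a difference was 266 bases between MT-ND2 and its copy and 141 bases between MT-ATP6 and its copy. MTND2P28 had a log2 fold change of 0.17 and MTND1P23, the copy of MT-ND1, of 0.26, both called higher like their mitochondrial counterparts. MTATP6P1 had -0.02 and was not called. With the counts of the copies added to those of the mitochondrial genes, the same 4 mitochondrial genes were called.

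Neighbouring mitochondrial genes also share bases, so counts for MT-ATP8 and MT-ATP6 are not independent. The reading frames of both overlap by 46 bases (chrM:8527-8572), shown here in capitals with 10 bases on each side:
MT-ATP8 and MT-ATP6 (chrM:8517-8582, plus strand): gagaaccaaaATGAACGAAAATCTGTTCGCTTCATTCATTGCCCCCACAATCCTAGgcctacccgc
MT-ND4L and MT-ND4 overlap by 7 bases and MT-ATP6 and MT-CO3 by 1. Both pairs of overlapping genes, MT-ATP8 with MT-ATP6 and MT-ND4L with MT-ND4, are read from 1 bicistronic mRNA.

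The RNAs that surround the subunit genes on the same genome were also counted, although an mRNA library keeps only part of them. MT-RNR1, the small-subunit rRNA, was 115, 117 and 117 CPM in siNC and 143, 168 and 155 CPM in siYKT6. It rose by 0.41 on the log2 scale (edgeR adjusted p = 2.9e-07). MT-RNR2, the large-subunit rRNA and next to MT-ND1 on the genome, rose by 0.20 (edgeR adjusted p = 2.1e-04), from 10302 ± 608 to 11796 ± 498 CPM (SD, n = 3 each). Of 22 mitochondrial tRNAs 6 were called higher (27.3%, against 14.6% of all genes tested) and 0 lower, led by MT-TG (0.20), MT-TT (0.26) and MT-TH (0.23). None of the 22 was lower with an unadjusted p under 0.05 or was called lower by DESeq2 or limma-voom.

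The nuclear subunits of complex I, which make up its matrix arm and its accessory shell, showed 1 gene higher and 4 lower among 37 tested, a smaller share lower (10.8%) than over all genes. None of the 7 nuclear core subunits of the matrix arm, which carry the flavin and the iron-sulfur clusters, was called. NDUFV1, which binds the flavin, had a log2 fold change of 0.06, and NDUFS1, which holds several of the clusters, of 0.04. None of the 7 had an unadjusted p under 0.05 or was called by DESeq2 or limma-voom. Thus of the 14 core subunits from both genomes, 3 were called higher (21.4%) and 0 lower, against 14.6% and 16.3% of all genes tested. All 5 calls among the nuclear genes were accessory subunits, which hold none of the redox centres.

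NDUFA6, an accessory subunit of the matrix arm that binds the acyl carrier protein, was 140, 141 and 144 CPM in siNC and 159, 162 and 173 CPM in siYKT6. The groups were well apart, and it rose by 0.22 on the log2 scale (standard error 0.037, edgeR adjusted p = 9.3e-05). NDUFB9, an accessory subunit of the membrane arm that binds the same carrier protein, was 82.3, 86.9 and 84.4 CPM in siNC and 68.2, 68.9 and 74.1 CPM in siYKT6, and fell by 0.26 (standard error 0.040, edgeR adjusted p = 2.3e-05). NDUFB9 overlaps exons of MTSS1 by 334 bases and of TATDN1 by 185 bases on the opposite strand. Both are named here for that overlap, and their log2 fold changes were -0.69 for MTSS1 and -0.23 for TATDN1. NDUFB5, also of the membrane arm, was 16.6, 19.0 and 16.8 CPM in siNC and 14.3, 12.02 and 15.8 CPM in siYKT6, a fall of 0.32 on the log2 scale (edgeR adjusted p = 0.0037). NDUFB10 fell by 0.16 and NDUFV3, a small subunit of the flavoprotein module, by 0.15 (edgeR adjusted p = 0.012 and 0.015), but NDUFB10 was not called without siNC replicate 3, siYKT6 replicate 1 or siYKT6 replicate 2 (edgeR adjusted p from 0.052 to 0.10), nor NDUFV3 without siNC replicate 1 or siYKT6 replicate 2 (0.12 and 0.084). The other 32 had log2 fold changes between -0.16 and 0.23.

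Complex II was the only complex with every subunit called, and its subunits did not move together. SDHA, the flavoprotein that oxidises succinate, was 125, 125 and 130 CPM in siNC and 138, 142 and 138 CPM in siYKT6, and rose by 0.14 on the log2 scale (standard error 0.034, edgeR adjusted p = 0.0035). SDHD, an anchor in the inner membrane, was 9.23, 9.17 and 8.48 CPM in siNC and 6.90, 6.30 and 7.06 CPM in siYKT6, and fell by 0.41 (standard error 0.078, edgeR adjusted p = 3.6e-04). Neither gene had overlapping groups.

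SDHB, the iron-sulfur subunit that passes electrons from SDHA to the membrane, was 20.5, 19.2 and 20.9 CPM in siNC and 15.8, 17.6 and 19.0 CPM in siYKT6, where the highest siYKT6 sample came close to the lowest siNC sample. It fell by 0.21 (edgeR adjusted p = 0.014), and the call was lost without siNC replicate 3 (-0.18, edgeR adjusted p = 0.076) or without siYKT6 replicate 1 (-0.14, edgeR adjusted p = 0.11). SDHC, the other membrane anchor, was 55.2, 52.9 and 54.6 CPM in siNC and 47.8, 51.0 and 51.7 CPM in siYKT6, and its fall of 0.11 passed the threshold narrowly (edgeR adjusted p = 0.044). Its call was lost with DESeq2 (adjusted p = 0.065) and under 7 of the other settings tried, among them leaving out siNC replicate 1 or 3 or siYKT6 replicate 1 or 2, with edgeR adjusted p values up to 0.24. SDHC shares 774 exon bases with CFAP126 on the opposite strand, a gene with a log2 fold change of -0.27. SDHD shares 319 bases with AP002884.2 on the same strand, a gene with a log2 fold change of -0.51. TIMM8B, a carrier of the intermembrane space that overlaps SDHD by 26 bases head to head and was singled out after its value was seen, had a log2 fold change of 0.03 (edgeR adjusted p = 0.74).

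**Figure D3:**
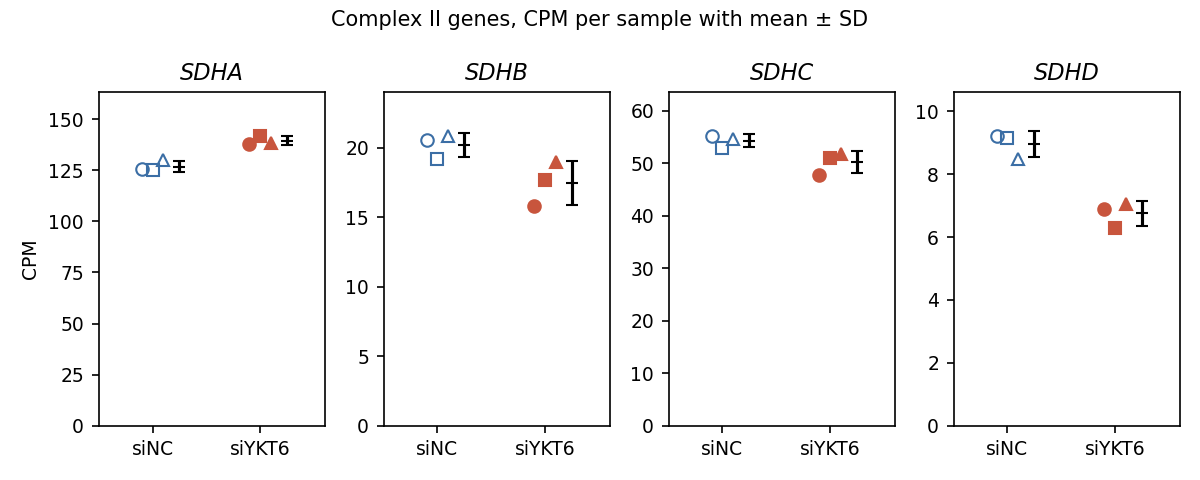
CPM of the 4 complex II genes (y axis, from 0, 1 panel a gene) in each siNC (open blue) and siYKT6 (filled red) sample, with symbol shapes for replicates and black marks for the mean ± SD (n = 3). SDHA lies higher in every siYKT6 sample, and SDHB, SDHC and SDHD lie lower.

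Complex III held the largest share of lower calls after complex II, with 5 of 9 nuclear genes lower (55.6%) and 0 higher. Over all genes tested, 16.3% were lower and 14.6% higher. The lower complex III genes were small supernumerary subunits or the copy of one. Without siYKT6 replicate 2, only UQCRH and UQCRQ among them were called lower. UQCRH, the hinge protein between cytochromes c1 and c, was 103, 105 and 107 CPM in siNC and 93.0, 66.1 and 88.5 CPM in siYKT6. The second siYKT6 sample stood well below the other two, and the fall of 0.35 on the log2 scale (standard error 0.075, edgeR adjusted p = 9.4e-04) was not called by DESeq2 (adjusted p = 0.054). Without that sample the log2 fold change was -0.21 and the edgeR call held. UQCRHL, an intronless near copy of UQCRH on chromosome 1 whose reads may be exchanged with it, fell by 0.34 (edgeR adjusted p = 0.012), from 9.32, 10.2 and 10.6 CPM to 8.91, 6.34 and 8.66 CPM, and was not called without siNC replicate 3 (-0.30, edgeR adjusted p = 0.072) or siYKT6 replicate 2 (-0.20, edgeR adjusted p = 0.094). UQCRQ, which lies beside cytochrome b, was 70.0, 71.9 and 71.3 CPM in siNC and 61.5, 61.3 and 67.9 CPM in siYKT6. This was a fall of 0.16 (edgeR adjusted p = 0.0052). UQCR11 fell by 0.19 (edgeR adjusted p = 0.0092, or 0.074 without siYKT6 replicate 2). UQCRQ shares 306 exon bases with GDF9 on the opposite strand (log2 fold change -0.17). UQCR11 shares 235 bases with AC005943.2 on the same strand (-0.09). UQCRB, another subunit that contacts cytochrome b, was the most abundant of the set at 359 ± 5.77 CPM in siNC and 333 ± 14.98 CPM in siYKT6 (SD, n = 3 each), a fall of 0.11 (edgeR adjusted p = 0.018). The UQCRB call was lost without siYKT6 replicate 1 and without siYKT6 replicate 2. In complexes III, IV and V no nuclear gene was called higher by edgeR, DESeq2 or limma-voom, and none was higher with an unadjusted p under 0.05. The remaining genes were not called, among them UQCRFS1, the Rieske iron-sulfur protein, at 0.02, and the core proteins UQCRC1 and UQCRC2 at 0.05 and -0.11.

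In complex IV, 3 of 11 nuclear genes tested were lower (27.3%) and 0 higher, against 16.3% and 14.6% of all genes tested. COX7C was 194, 181 and 190 CPM in siNC and 172, 163 and 171 CPM in siYKT6, and fell by 0.16 (standard error 0.036, edgeR adjusted p = 0.0014). COX6C, the most abundant nuclear member in CPM, was 797, 812 and 824 CPM in siNC and 757, 587 and 762 CPM in siYKT6. Its fall of 0.21 (edgeR adjusted p = 0.012) rested on the second siYKT6 sample, since without that sample it was -0.09 (edgeR adjusted p = 0.062). Leaving out siNC replicate 3 gave an adjusted p of 0.055 with edgeR, and DESeq2 gave 0.20. COX7B fell by 0.15 (edgeR adjusted p = 0.045) with overlapping groups, and was not called by DESeq2 (adjusted p = 0.055) or without siNC replicate 1 or 2 or siYKT6 replicate 1 or 2 (edgeR adjusted p from 0.13 to 0.22).

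Several complex IV subunits exist as isoforms for different tissues or states, and for COX4I, COX6B and COX7A the table held a second form, which was the lower one in these cells. COX4I1 was 304 ± 14.05 CPM in siNC and 306 ± 12.9 CPM in siYKT6 (SD, n = 3 each), whereas its hypoxia-linked isoform COX4I2 had at most 1 count in any library. COX7A2 was 50.3 ± 1.48 and 46.8 ± 3.69 CPM (SD, n = 3 each), whereas the muscle isoform COX7A1 had 3 to 6 counts a library and was too low to test. COX6B1 was 13.6 ± 1.30 and 12.96 ± 1.17 CPM and its testis isoform COX6B2 1.13 ± 0.294 and 0.847 ± 0.205 CPM (SD, n = 3 each). COX6A1, with a log2 fold change of 0.03, and COX8A, with 0.07, were the members of their sets examined here. None of the isoform genes of COX4I, COX6A, COX6B, COX7A and COX8 was called by edgeR, DESeq2 or limma-voom. Of the 6 tested, 1, COX7A2, had an unadjusted p under 0.05. COX7B and the ATP5G genes, also taken as isoform sets, are given apart, and there COX7B and ATP5G1 were called lower by edgeR.

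In complex V, 6 of 17 nuclear genes tested were lower (35.3%) and 0 higher, against 16.3% and 14.6% of all genes tested. Of the 6, 3 were among the 5 subunits of F1, and these 3 were the only complex V genes called lower without siYKT6 replicate 2. ATP5B, the catalytic beta subunit, was 95.9, 95.8 and 95.6 CPM in siNC and 88.2, 88.2 and 88.5 CPM in siYKT6, with little spread within either group, and fell by 0.12 (standard error 0.034, edgeR adjusted p = 0.011). ATP5A1, the alpha subunit that alternates with it, fell by 0.14 (edgeR adjusted p = 0.0094), from 84.6, 87.9 and 84.7 CPM to 77.8, 81.6 and 73.7 CPM. ATP5E, the small epsilon subunit of the central stalk, fell by 0.15 (edgeR adjusted p = 0.0029), from 93.8 ± 1.145 to 84.5 ± 2.90 CPM (SD, n = 3 each). The other 2 F1 genes, ATP5C1 and ATP5D, had log2 fold changes of -0.05 and -0.20 and were not called.

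The c ring, which turns as protons pass, is made of a protein encoded by 3 genes. ATP5G1 was 5.95, 6.34 and 5.46 CPM in siNC and 4.32, 3.78 and 5.63 CPM in siYKT6, with overlapping groups, and its fall of 0.37 (edgeR adjusted p = 0.021) was lost without siNC replicate 1 or 2 or siYKT6 replicate 1 or 2, with adjusted p values from 0.055 to 0.13. ATP5G2 was 5.41 ± 0.417 and 4.87 ± 0.296 CPM and ATP5G3, the most abundant, was 12.4 ± 0.179 and 12.2 ± 1.155 CPM (SD, n = 3 each), and neither was called. Of the membrane subunits, ATP5I fell by 0.19 and ATP5J2 by 0.15 (edgeR adjusted p = 0.013 and 0.022). ATP5I was not called without siNC replicate 3 (edgeR adjusted p = 0.057) or siYKT6 replicate 2 (0.082). It shares 579 of its 940 exon bases with MYL5 on the opposite strand, which had a log2 fold change of -0.17. ATP5J2 was not called without siYKT6 replicate 1 or without siYKT6 replicate 2. It shares 177 bases with ATP5J2-PTCD1 on the same strand, which had -0.13. The peripheral stalk, which holds the head still, had 0 of 4 genes called, with log2 fold changes between -0.05 and 0.07, and none had an unadjusted p under 0.05 or was called by DESeq2 or limma-voom. Both gene copies, ATP5L2 and ATP5J2LP, had 2 counts or fewer in every library and were not tested.

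**Figure D4:**
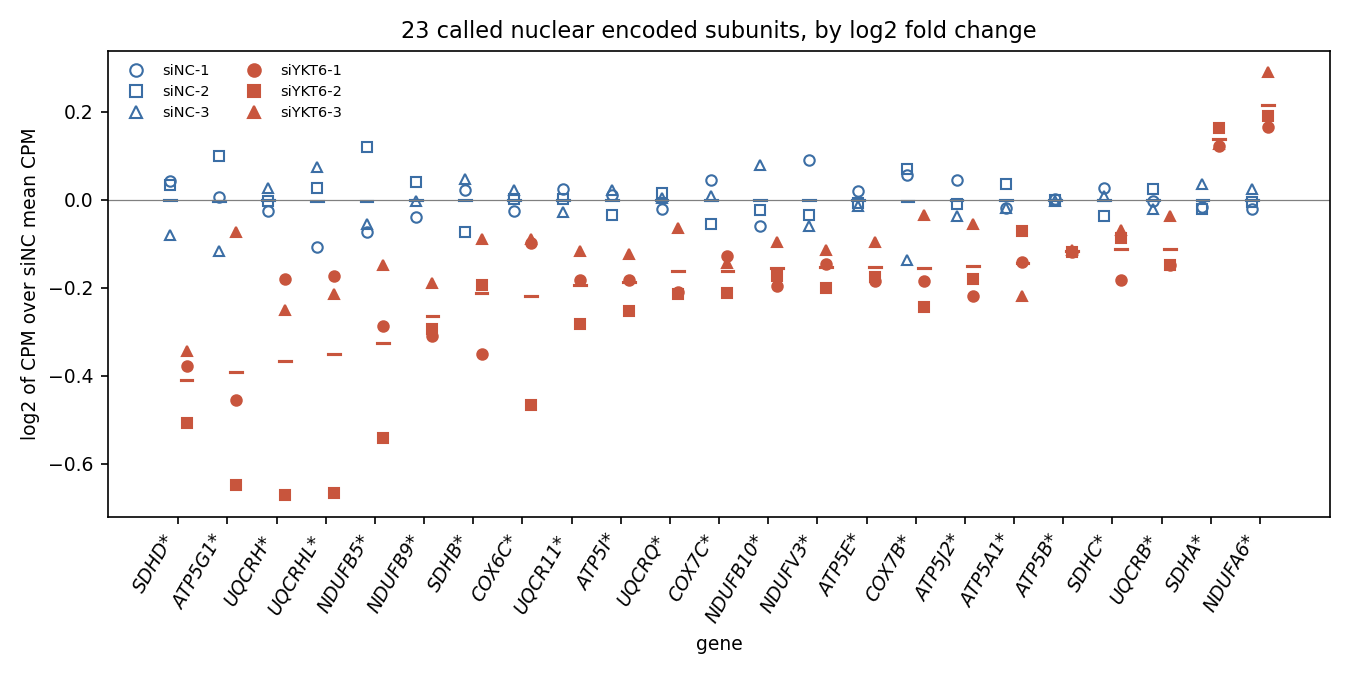
Log2 of each sample's CPM over the siNC mean CPM (y axis) for the 23 nuclear subunit genes with an edgeR adjusted p under 0.05 (x axis, ordered by fold change). Open blue symbols are siNC, filled red symbols siYKT6, shapes give the replicate and short bars are means of the log2 values. The siYKT6 square, replicate 2, sits far below the other siYKT6 symbols for UQCRH, UQCRHL and COX6C.

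The count of lower nuclear genes was smallest with the second siYKT6 sample left out. Without it, 10 nuclear members were called lower, all of them among the 21, against 2946 of 21440 genes tested. With any other single sample left out the count was 15 to 25. Why the count differed was not tested. The 2 genes called higher, NDUFA6 and SDHA, were called without any 1 of the 6 samples.

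Summed reads gave the balance of the genomes in each sample. The ratio of summed CPM of mitochondrial to nuclear members was 13.9, 13.8 and 13.3 in siNC and 14.6, 15.03 and 14.4 in siYKT6, so the lowest siYKT6 sample exceeded the highest siNC sample. For complex I it was 16.6, 16.6 and 16.2 in siNC and 18.2, 17.7 and 17.4 in siYKT6, and for complex III 3.73, 3.51 and 3.54 against 3.85, 4.10 and 3.84. For complex IV it was 16.8, 16.4 and 15.9 against 17.03, 19.3 and 17.3, where the high value belongs to the second siYKT6 sample, and for complex V 15.3, 15.4 and 14.5 against 15.6, 15.5 and 15.6. In each of these the groups did not overlap, although for complexes III, IV and V they came within 1 siNC SD of each other. Without COX6C the overall ratio was 15.9 to 16.5 in siNC and 16.9 to 17.3 in siYKT6. The summed mitochondrial CPM overlapped between the groups, at 67647 to 70534 and 69978 to 72897, while the summed nuclear CPM did not, at 5075 to 5125 and 4656 to 5067. Without COX6C the nuclear sums overlapped too, at 4263 to 4312 CPM in siNC and 4068 to 4305 CPM in siYKT6. These sums are dominated by a few abundant genes and carry no test.

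**Figure D5:**
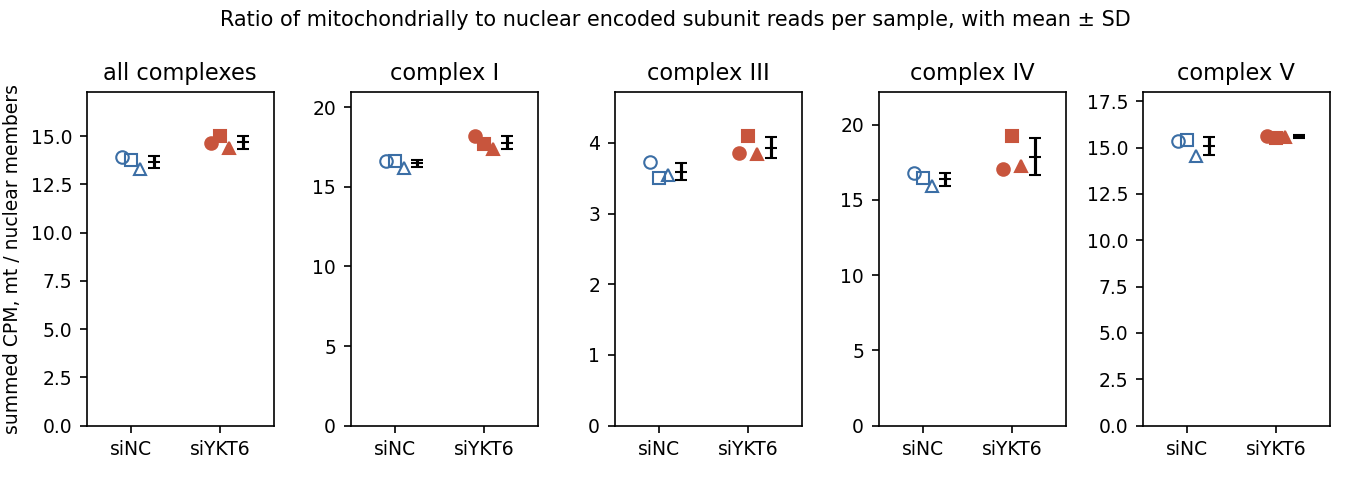
Ratio of the summed CPM of mitochondrial to nuclear members (y axis, from 0, no unit) per sample, for all complexes and for complexes I, III, IV and V. Open blue symbols are siNC, filled red symbols siYKT6, shapes give the replicate and black marks the mean ± SD (n = 3). The siYKT6 values lie above the siNC values in each panel, from 14.4 to 15.03 against 13.3 to 13.9 over all complexes.

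Nuclear subunit genes are known for promoters with sites for NRF1, ETS-family factors such as NRF2 (GABP) and YY1, and RefSeq promoters (GRCh38.p14, 250 bases before to 50 after the start) were matched for 64 of the 82. NRF1's core GCGCATGC, or its reverse complement GCATGCGC, stood in 14 of the 64 (21.9%) against 3.27% of all 27305 promoters. The ETS motif CCGGAAGT or ACTTCCGG stood in 9 (14.1% against 4.44%), the YY1 motif AAGATGGC or GCCATCTT in 11 (17.2% against 3.03%), and the SP1 motif GGGCGG or CCGCCC in 38 (59.4% against 44.6%). NRF1's core was in 3 of 13 promoters of genes called lower, in 1 of 2 called higher and in 10 of 49 not called, the ETS motif in 4, 0 and 5, the YY1 motif in 1, 1 and 9, and the SP1 motif in 7, 1 and 30. Member promoters were those starting nearest the gene start. For all genes the first listed promoter was taken, expressed or not, so the compared shares rest on unlike choices. A match of letters does not show that a factor binds. The promoters of 3 complex II genes are shown because these genes moved in different directions, and those of NDUFA6, UQCRH and UQCRQ because they were among the called genes with such a match. Capitals mark NRF1, ETS and YY1 matches, and each is given in the sense of its gene:
SDHA (chr5:218255-218354, plus strand): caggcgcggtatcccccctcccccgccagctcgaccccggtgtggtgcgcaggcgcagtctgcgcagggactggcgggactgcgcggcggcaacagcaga
SDHB (chr1:17054000-17054247, minus strand): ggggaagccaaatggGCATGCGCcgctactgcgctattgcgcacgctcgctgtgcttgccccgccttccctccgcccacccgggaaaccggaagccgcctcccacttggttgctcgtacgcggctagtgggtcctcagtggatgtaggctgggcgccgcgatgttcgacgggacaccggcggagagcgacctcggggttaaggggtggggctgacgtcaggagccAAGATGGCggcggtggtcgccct
SDHD (chr11:112086748-112086847, plus strand): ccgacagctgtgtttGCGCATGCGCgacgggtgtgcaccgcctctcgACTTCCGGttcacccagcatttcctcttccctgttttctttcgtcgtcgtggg
UQCRH (chr1:46303636-46303735, plus strand): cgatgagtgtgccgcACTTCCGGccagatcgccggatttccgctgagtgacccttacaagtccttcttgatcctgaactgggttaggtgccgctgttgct
UQCRQ (chr5:132866573-132866672, plus strand): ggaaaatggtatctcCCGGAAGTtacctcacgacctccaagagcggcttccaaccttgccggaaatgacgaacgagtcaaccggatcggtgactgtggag
NDUFA6 (chr22:42090725-42090953, minus strand): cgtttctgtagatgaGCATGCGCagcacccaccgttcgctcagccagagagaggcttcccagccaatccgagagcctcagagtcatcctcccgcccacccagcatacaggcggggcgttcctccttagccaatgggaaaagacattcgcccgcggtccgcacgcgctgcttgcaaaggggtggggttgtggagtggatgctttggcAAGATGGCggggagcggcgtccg
SDHD carries an NRF1 match on both strands of the same 10 bases followed by an ETS match. SDHB and NDUFA6, which moved in opposite directions, each carry an NRF1 match far upstream and a YY1 match just after the start. The shown stretch of SDHA holds none of the 3 motifs, nor does the rest of its 300 bases, and UQCRH and UQCRQ hold the ETS match alone.

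Genes that act on the subunits were counted in the same way. Of 50 assembly factors, 4 were called higher and 10 lower, against 14.6% and 16.3% of all genes tested, so the lower share was near that of all genes, and in the complex III list 2 were higher and 1 lower. NDUFAF4, an assembly factor of complex I, was 8.76, 7.75 and 7.13 CPM in siNC and 4.95, 4.09 and 4.78 CPM in siYKT6, and fell by 0.77 on the log2 scale (edgeR adjusted p = 2.7e-06). NDUFAF2, which binds a late complex I intermediate, fell by 0.35, and SCO1, which delivers copper to complex IV, fell by 0.46, from 48.3 ± 1.33 to 35.1 ± 1.14 CPM (SD, n = 3 each). COX10, which makes heme O for MT-CO1, fell by 0.51, while UQCC1 of complex III rose by 0.18 and COX20 of complex IV by 0.18. Among 8 chain components that the symbol rule left out, 2 were lower (against 16.3% of all genes tested) and 0 higher, CYCS, the electron carrier cytochrome c, by 0.16 and COX7A2L, a supercomplex factor, by 0.22. None of the 8 was higher with an unadjusted p under 0.05 or by DESeq2 or limma-voom.

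Among 26 genes of mitochondrial transcription and RNA handling, 2 were called higher and 10 lower (7.69% and 38.5%, against 14.6% and 16.3% of all genes tested). PNPT1, an RNA exonuclease subunit, was 64.8, 64.9 and 59.5 CPM in siNC and 49.6, 48.8 and 48.8 CPM in siYKT6, and fell by 0.36 (edgeR adjusted p = 6.6e-07). PDE12, which removes poly(A) tails, fell by 0.61, and SLIRP, which together with LRPPRC stabilises mitochondrial mRNAs, fell by 0.22. The higher genes were MTERF2 (0.29) and MTERF4 (0.16), both of the mitochondrial transcription termination factor family. Among 10 genes of mitochondrial DNA replication, 2 were higher and 3 lower against the same shares of all genes, with POLG, the catalytic subunit of the polymerase, rising by 0.22, and TOP1MT, the organelle's topoisomerase, falling from 79.6 ± 1.08 to 57.6 ± 3.46 CPM (SD, n = 3 each).

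Of 9 transcription factors and coactivators of respiratory chain genes, 4 were lower and 0 higher, against 16.3% and 14.6% of all genes tested. PPARGC1B, the coactivator PGC-1 beta, was 16.5, 16.4 and 17.2 CPM in siNC and 10.4, 10.2 and 9.40 CPM in siYKT6, and fell by 0.74 on the log2 scale (standard error 0.063, edgeR adjusted p = 1.0e-08). PPRC1, a related coactivator, fell by 0.36 (edgeR adjusted p = 1.3e-06) and GABPB2, a subunit of NRF2, by 0.23 (edgeR adjusted p = 0.0038). The median of the list was 0.03, and the 5 genes that were not called lay above 0. They were NRF1 (0.15), PPARGC1A (0.12), GABPB1 (0.10), YY1 (0.06) and GABPA (0.03). GABPA and GABPB1, also subunits of NRF2, were 98.8 and 42.8 CPM in siNC, against 20.9 CPM for GABPB2. Of the 5, 2 had an unadjusted p under 0.05, while DESeq2 and limma-voom also called 0 higher.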

How the data were processed

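RNA from 3 siNC and 3 siYKT6 samples of 5637 cells was sequenced from a stranded mRNA library. The deposited values are raw read counts per gene, which the authors made by filtering reads with fastp 0.23.0, aligning them to GRCh38 and counting exonic reads with featureCounts of Subread 1.5.1. The aligner, the strand setting and the handling of reads with several matches were not stated in these sources. Without the strand setting, overlapping genes may share reads, and 11 of the 23 called nuclear members overlap an exon of another gene. The table also holds exon lengths, used for CPM per kilobase. Between 68.8% and 70.0% of counts from 1 to 20 were even, so halved counts were run as an alternative. No columns of unmapped samples were present.

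Samples were grouped by their titles. Of 36887 genes, 21036 passed filterByExpr and were fitted in edgeR 4.0.16 (R 4.3.3) with TMM scaling, glmQLFit and glmQLFTest, group as the only term, and Benjamini-Hochberg adjustment over all genes tested. CPM values are TMM-scaled, and the standard error is the log2 fold change divided by the square root of F. The procedure was also run on simulated counts with the same spread set for every gene. Such counts do not cover single outlying samples, and no result here rests on them. Alternatives were DESeq2 size factors, upper quartile scaling, scaling from nuclear genes only, no filter, at least 1 CPM in all samples, DESeq2 1.42.0, limma-voom (limma 3.58.1), halved counts, a replicate block, leaving out each sample, and, added after the data were seen, adding the chromosome 1 copies to their mitochondrial counterparts. The members and gene lists were chosen with earlier results of these data known. Symbols ending in P and a digit were dropped as pseudogenes for nuclear names only, since MT-ATP6 and MT-ATP8 end the same way. Genes named are the mitochondrial members, up to 4 called nuclear members per complex and direction with the smallest p, isoform sets and untested members. From each other list up to 3 called genes per direction were named. The remaining called members and some uncalled genes were added.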

Additional observations from a re-analysis of the deposited data

How the results depend on the processing

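No member was called in the opposite direction under any of the 16 alternatives. Mitochondrial genes called higher numbered 5 in place of 3 under upper quartile scaling, with no filter and with limma-voom, the added genes being MT-ND4L and MT-ND5, and 2 to 5 when 1 sample was left out. Mitochondrial genes called lower numbered 0 to 1 on leaving out 1 sample, MT-CO1 being lost without siNC replicate 1 or siYKT6 replicate 2. Nuclear members called lower ranged from 10 to 25, with 10 of 78 without siYKT6 replicate 2, against 2946 of 21440 genes tested there. The median log2 fold change of the mitochondrial genes ranged from -0.0015 to 0.0493 on leaving out 1 sample and was -0.0015 without siYKT6 replicate 3, so its sign is not firm. Over all genes, the calls were 3066 higher and 3419 lower, but 3475 and 3094 with upper quartile scaling and 3309 and 3181 with no filter. Samples with the same replicate number did not deviate together (r = 0.011, -0.0051 and 0.0029), so the numbers were not used as pairs. With a replicate block, 2958 genes were called higher and 3312 lower, 19 nuclear members were lower, SDHC and COX7B were not called, and the 4 mitochondrial calls were the same. The cause of these changes was not tested. At 45205238 counts or more per sample, COX4I2, COX7A1, ATP5L2 and ATP5J2LP were too low to test.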

Other observations

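The tricarboxylic acid cycle, which supplies NADH and succinate to complexes I and II, moved in both directions, with 3 of 14 genes higher and 5 lower against 14.6% and 16.3% of all genes tested. IDH2, a mitochondrial NADP-dependent isocitrate dehydrogenase, rose from 104 to 136 CPM, a log2 fold change of 0.39 (standard error 0.040, edgeR adjusted p = 1.2e-07). Of the NAD-dependent isocitrate dehydrogenase, IDH3B rose by 0.24 and IDH3A fell by 0.29 on the log2 scale, and MDH2, the mitochondrial malate dehydrogenase, fell by 0.23.

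Of 24 genes of mitochondrial protein import, 2 were higher and 7 lower, against the same shares of all genes. DNAJC19, a co-chaperone of the inner membrane motor, fell by 0.50 and TOMM70, an outer membrane receptor, by 0.24 on the log2 scale (edgeR adjusted p = 1.2e-05 and 6.0e-05). TIMM22, the channel of the carrier pathway, and GFER, an oxidase of the intermembrane space, each rose by 0.37. Of the 3 VDAC channels of the outer membrane, VDAC3 rose by 0.21 and none was called lower by edgeR, DESeq2 or limma-voom, while 1 had an unadjusted p under 0.05 in that direction.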
